A study of Mus musculus with 21 samples.

Results

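Sphingosine 1-phosphate (S1P) is a lipid signal that endothelial cells make, release and sense, and 6 genes of its metabolism and signalling were followed here: the receptors S1pr1 and S1pr3, the exporter Spns2, the sphingosine kinases Sphk1 and Sphk2, and the lyase Sgpl1. They were chosen by name from the 24176 genes of the bulk RNA table, and all 6 are in it. The study sorted endothelium of C57BL/6J mice, 2 to 4 months old, from 3 organs: brain, lung and liver, each with 3 RNA libraries, and brain also with 1 single-cell library. The labels give no genetic change or treatment, so tissue is what separates the groups. Every mouse was perfused with saline, and each organ was digested with the enzymes collagenase, dispase and DNase. A myelin removal step was added for brain. The gate took viable (7-AAD-) CD31+ cells and left out those with PDGFRβ (mural cells) or CD45 (leukocytes).

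Sphingosine kinases phosphorylate sphingosine to S1P inside the cell, and SPNS2 releases it from endothelium into blood and lymph. Outside, S1P acts on G-protein-coupled receptors, of which S1PR1 is the main receptor of endothelium, where it strengthens cell junctions and restrains sprouting. S1P is ended by the lyase SGPL1 in the endoplasmic reticulum, or returned to sphingosine by the phosphatases SGPP1 and SGPP2.

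Lung library 2 was the shallowest of the 9, with 2992101 counts; the other lung libraries reached 11308897, brain libraries ranged from 15907235 to 21792786 and liver libraries from 18485600 to 25690571. Levels are given as CPM, the counts scaled to a fixed library total, which are not divided by transcript length, so each gene is compared between tissues and not with other genes. All 8 pan-endothelial markers were detected in every tissue, at a summed 7058 to 7726 CPM in brain, 9150 to 12334 in lung and 5236 to 5400 in liver. Some RNA of other cells was present: the 8 leukocyte markers summed to 139 to 193 CPM in lung, against 3.85 to 15.5 in brain and 9.63 to 22.6 in liver. The 6 lung epithelial markers summed to 305, 1797 and 618 CPM in lung libraries 1, 2 and 3. All 6 hepatocyte markers were detected in liver, at a summed 243 to 606 CPM. In brain 2 of the 6, Ttr and Cyp2e1, were detected, at a summed 49, 966 and 325 CPM in libraries 1, 2 and 3. The others (Alb, Apoa1, Serpina1c and Apoc3) were at 0 there. Ttr is also among the choroid plexus markers, so this brain sum does not stand for hepatocytes alone. In lung 2 of the 6 were detected, at 0.289 to 2.65 CPM, with Alb, Ttr, Serpina1c and Apoc3 at 0. The labels call the libraries biological replicates and name no animals, so p-values here reflect how far libraries of a tissue differ, which may be technical. In bulk samples, fewer cells of a type and less RNA per cell cannot be told apart.

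The receptor S1pr1 was far lower in liver endothelium than in the other tissues. The 3 brain libraries stood at 769, 1420 and 1136 CPM, those of lung at 1677, 1566 and 1865, and those of liver at 205, 88.7 and 232. The ranges of the 3 tissues did not overlap, with every lung library above every brain library and every liver library lowest. The means were 1108 ± 327 CPM in brain, 1702 ± 151 in lung and 175 ± 76 in liver (SD, n = 3). Brain exceeded liver with a log2 fold change of 2.54 (SE 0.3, 95% interval 1.9 to 3.18, edgeR quasi-likelihood test, Benjamini-Hochberg adjusted p = 4.21e-05), which is 5.81-fold. Lung exceeded liver 8.56-fold, with a log2 fold change of 3.1 (SE 0.3, 95% interval 2.45 to 3.75, edgeR adjusted p = 1.29e-05). Both calls held with each library left out, at log2 fold changes of 2.29 to 2.76 and 2.84 to 3.28. Between brain and lung the difference was not called, at a log2 fold change of −0.56 (SE 0.28, 95% interval −1.16 to 0.04, edgeR adjusted p = 0.229). The comparisons share libraries, since each tissue enters a pair of them.

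**Figure D1:**
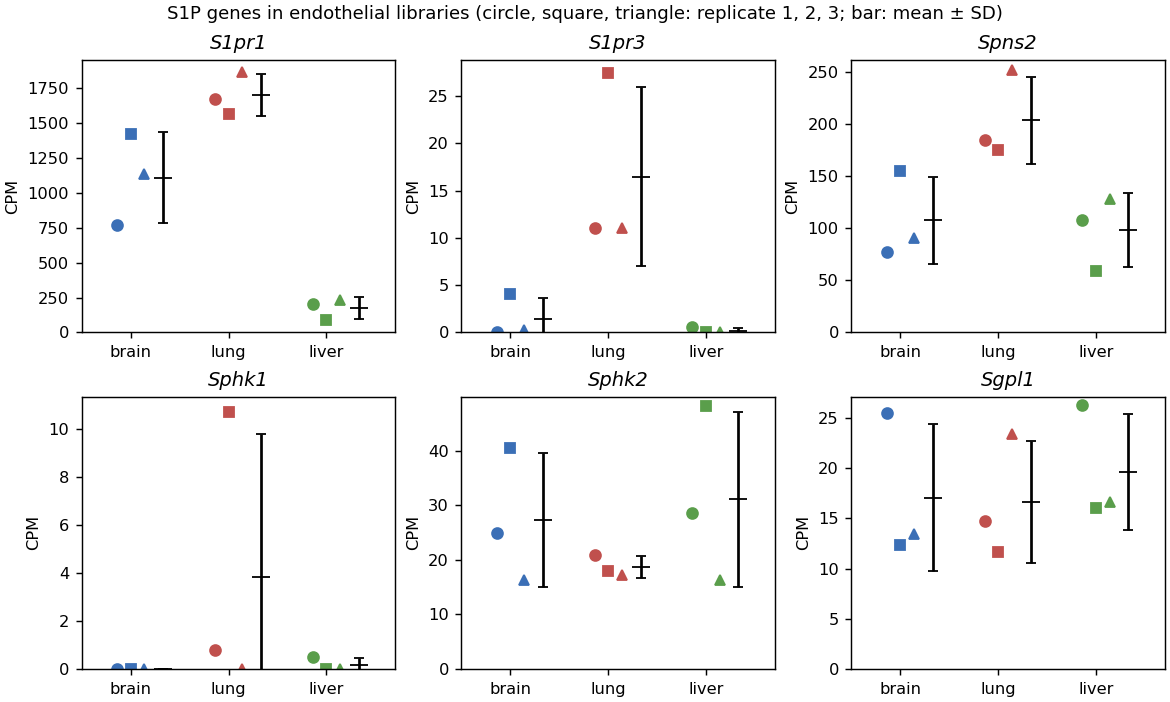
CPM (vertical axis, linear from 0) of the 6 genes in each of the 9 bulk libraries, by tissue; circles, squares and triangles are replicates 1, 2 and 3, and bars are mean ± SD, cut at 0. S1pr1 in liver stays at or below 232 CPM while brain starts at 769, S1pr3 is highest in the 3 lung libraries, and Sphk2 and Sgpl1 overlap between all tissues.

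S1pr3, a receptor best known from vascular smooth muscle and other mural cells and found in some endothelium, was scarce in brain and liver. Its counts were 0, 72 and 6 in the brain libraries (0, 4.01 and 0.275 CPM), 124, 82 and 76 in lung (11, 27.4 and 11 CPM), and 10, 0 and 0 in liver. All lung libraries lay above all others, while brain and liver overlapped at 0. Lung over liver had a log2 fold change of 6.37 (SE 2.05, 95% interval 1.95 to 10.79) that missed the threshold (edgeR adjusted p = 0.0516; 0.0216 to 0.16 over the alternatives). Brain against lung had −3.49 (SE 1.77, edgeR adjusted p = 0.236), and brain against liver 2.88 (SE 1.78, edgeR adjusted p = 0.323). The brain against liver value rested on brain library 2, without which it was −0.3. The brain against lung value grew in size without that library, to −6.67, and ranged from −6.67 to −2.87 with 1 library left out. Without liver library 1, where all liver counts are 0 and the fitted value depends on the prior count, the brain against liver value was 7.41. Markers of other cell types were present beside these values. The 10 mural cell markers summed to 37.3, 127 and 189 CPM in brain libraries 1, 2 and 3, and to 52.9, 33.1 and 39.9 in those of lung. In liver they summed to 26.3 to 131 CPM, with Pdgfrb at 0. The 6 fibroblast markers summed to 43.9, 29.7 and 49.2 CPM in lung libraries 1, 2 and 3. Their sums were 3.33 to 24.6 CPM in brain, where Dcn and Lum were at 0, and 7.23 to 10.5 in liver, where Lum was at 0. All 6 hepatic stellate markers were detected in lung, at a summed 118, 629 and 246 CPM in libraries 1, 2 and 3. The stellate markers summed to 30.2 to 59.7 CPM in brain, where Lrat and Colec11 were at 0, and to 79.8 to 106 in liver, where Ngfr and Colec11 were at 0. Lung library 2, the highest in S1pr3, was thus the highest lung library in stellate markers but the lowest in mural and fibroblast markers. It was also the highest lung library in pan-endothelial and lung epithelial markers. The 6 choroid plexus markers summed to 184, 1628 and 557 CPM in brain, with library 2 highest there too, but genes of this list were present elsewhere too, at a summed 1004 to 1757 CPM in lung, where Ttr was at 0, and 2036 to 2703 in liver. Their part in the S1pr3 counts was not tested. S1pr3 shares annotated sequence with the predicted gene Gm32834, and since strand use in counting is not given in the sources used here, their reads cannot be told apart.

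The other receptors complete the family. S1pr4, known chiefly from lymphocytes, was also higher outside liver. Brain libraries had 21.9, 60.7 and 15.6 CPM, lung libraries 73.3, 57.5 and 52.4, and liver libraries 2.22, 1.25 and 5.31. Liver lay below every other library, and brain and lung overlapped. The log2 fold change was 3.35 for brain over liver (SE 0.67, edgeR adjusted p = 0.00321) and 4.21 for lung over liver (SE 0.7, edgeR adjusted p = 0.00104). Of the 8 leukocyte markers, 4 were detected in brain, 8 in lung and 5 in liver, at the sums given above, with Cd3e, Cd79a and Nkg7 among those at 0 in brain. Their part in the S1pr4 levels was not tested. S1pr2 ranged from 0 to 2.51 CPM in brain, 0 to 18.2 in lung and 0.389 to 10.3 in liver, with overlap throughout and no call. S1pr5 had 16 counts in lung library 3, 22 in liver library 3 and 0 in the other 7 libraries, and did not pass the count filter.

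Spns2, the exporter of S1P, was present in every library. It stood at 76.8, 155 and 91.1 CPM in the brain libraries, at 185, 175 and 252 in those of lung, and at 108, 58.9 and 128 in those of liver. The lung libraries lay above all others, and brain and liver overlapped. Neither lung difference passed the test: brain against lung had a log2 fold change of −0.86 (SE 0.34, 95% interval −1.6 to −0.12, edgeR adjusted p = 0.124), and lung against liver 0.86 (SE 0.34, 95% interval 0.12 to 1.6, edgeR adjusted p = 0.115). Between brain and liver the value was −0.01 (95% interval −0.74 to 0.73, edgeR adjusted p = 1), and its sign turned with the scaling. Spns2 overlaps Mybbp1a and Gm40194 in the annotation, whose reads cannot be told apart from its own without strand.

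Of the kinases, Sphk2 was detected throughout and Sphk1 in few libraries. Sphk2 stood at 25, 40.6 and 16.3 CPM in the brain libraries, at 20.9, 18 and 17.2 in those of lung, and at 28.7, 48.3 and 16.3 in those of liver. The tissues overlapped and none of the 3 differences was called, at log2 fold changes of 0.59 for brain against lung (95% interval −0.68 to 1.85, edgeR adjusted p = 0.592), −0.47 for brain against liver (−1.72 to 0.79, 0.668) and −1.06 for lung against liver (−2.33 to 0.22, 0.269). Sphk2 overlaps Dbp and Rpl18 in the annotation, so part of its reads may belong to these genes. Sphk1, an inducible kinase, had 0 counts in the 3 brain libraries, 9, 32 and 0 in lung, and 9, 0 and 0 in liver. It did not pass the count filter, and without that filter no difference was called (edgeR adjusted p = 0.0746 for brain against lung, 0.277 for brain against liver and 0.284 for lung against liver).

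The lyase Sgpl1, which breaks S1P down for good, overlapped between all tissues. It stood at 25.5, 12.3 and 13.4 CPM in the brain libraries, at 14.7, 11.7 and 23.4 in those of lung, and at 26.3, 16 and 16.6 in those of liver. The intervals of its differences allow a change of either sign. The log2 fold changes were 0.08 for brain against lung (95% interval −1.18 to 1.35, edgeR adjusted p = 0.957), −0.39 for brain against liver (−1.65 to 0.87, 0.731) and −0.48 for lung against liver (−1.74 to 0.79, 0.661).

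Of the 6 genes, 5 passed the count filter, so that 1 was not tested. None of the 5 was called between brain and lung by edgeR, where 12.3% of all tested genes were called (5.05% higher and 7.25% lower in brain). Spns2 had an unadjusted p under 0.05, and DESeq2 called none. Of the 5, 1 gene, S1pr1, was called between brain and liver, higher in brain as were 7.45% of tested genes, while 8.72% were lower. S1pr1 was also the 1 gene called between lung and liver, higher in lung as were 8.04%, while 7.02% were lower. The libraries did not overlap for 3 of the 5 genes between brain and lung, for 1 between brain and liver and for 3 between lung and liver. Over all tested genes these shares were 33.8%, 33.2% and 34.5%. The median log2 fold change of the 5 genes was −0.56, −0.01 and 0.86, beside 0, 0.01 and 0 over all genes.

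**Figure D2:**
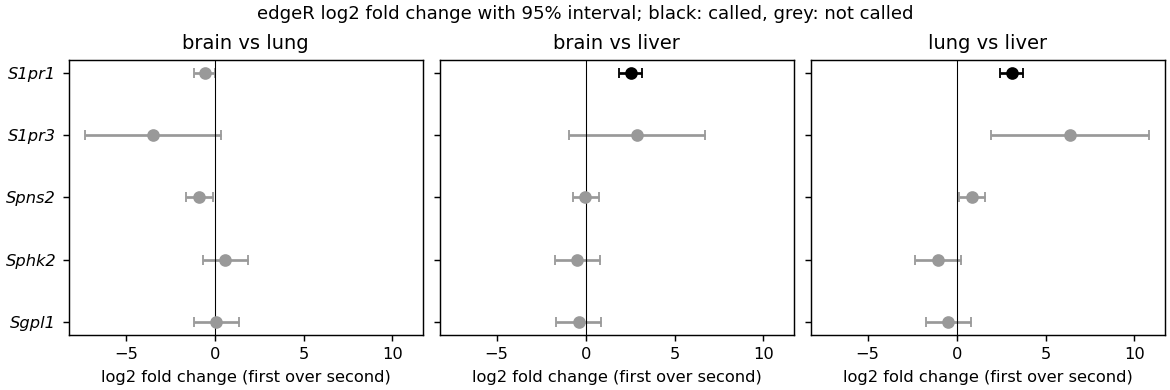
edgeR log2 fold change (horizontal axis, first tissue over the second) with its 95% interval for the 5 tested genes in the 3 tissue comparisons; black marks a call and grey none. S1pr1 is called against liver from both brain (2.54) and lung (3.1), and the intervals of S1pr3 are the widest, reaching 10.79.

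Among all genes, the pattern of S1pr1 over the 9 libraries was nearest to that of Cldn5, the main claudin of endothelial junctions, with a root mean square difference of 0.35 in centred log2 CPM. Bcam, a laminin receptor, followed at 0.37 and Dnal1 at 0.4, while the median gene differed by 1.78. Cldn5 had 399, 538 and 54.7 CPM on average in brain, lung and liver. S1pr3 was nearest to Hgfac (0.61), Sod3, the extracellular superoxide dismutase (0.95), and Cacna1c, a calcium channel subunit (0.96), against a median of 3.09. These 3 genes were highest in lung as well, with means of 12.2, 47.2 and 71.5 CPM there and 0.686, 3.49 and 4.92 CPM in brain. Spns2 was nearest to Eif3k (0.24), Safb2 (0.25) and Nedd4l (0.27), Sphk2 to Txn2 (0.24), Erlin2 (0.26) and Rfc1 (0.32), and Sgpl1 to Stxbp5 (0.19), Unc50 (0.19) and Eif2s2 (0.21). The medians over all genes there were 1.25, 1.33 and 1.21.

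Beyond the 6 genes, 63 further genes were followed: enzymes and carriers of sphingolipids, the other receptors, and G proteins and trafficking factors of the receptors. Of these, 55 passed the filter. Between brain and lung 8 were higher and 10 lower in brain (32.7% against 12.3% of all genes), between brain and liver 8 were higher and 11 lower (34.5% against 16.2% of all genes), and between lung and liver 4 were higher and 8 lower in lung (21.8% against 15.1%). Their median log2 fold changes were −0.46, −0.6 and 0.28.

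Phosphatases and carriers of S1P differed between the tissues. The phosphatases Sgpp1 and Sgpp2, both enzymes of the endoplasmic reticulum that dephosphorylate S1P, had opposite patterns between brain and liver. In lung both lay far below their highest tissue. Sgpp2 stood at 479, 475 and 399 CPM in the brain libraries, at 20.5, 13.4 and 10.3 in those of lung, and at 0, 13.5 and 11.4 in those of liver. Sgpp1 stood at 18, 8.97 and 23.7 CPM in the brain libraries, at 28.7, 6.68 and 31.8 in those of lung, and at 449, 426 and 467 in those of liver. Neither the brain range of Sgpp2 nor the liver range of Sgpp1 was reached by another tissue. Sgpp2 was higher in brain than in lung by 4.98 on the log2 scale (SE 1.26, edgeR adjusted p = 0.0298), and than in liver by 5.48 (SE 1.28, edgeR adjusted p = 0.0167). Sgpp1 was lower in brain than in liver (−4.9, SE 0.55, edgeR adjusted p = 2.91e-05) and in lung than in liver (−4.56, SE 0.54, edgeR adjusted p = 6.71e-05). The Sgpp2 call against liver was lost without liver library 3 (edgeR adjusted p = 0.0742).

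Promoter windows of this pair and S1pr3 are shown for the phosphatases' opposite patterns between brain and liver and for the receptor highest in lung. Of the 6 genes, 5 have a window in the RefSeq table. Each runs from 250 bases before the start to 50 after it, 5′ to 3′ on the gene's strand, on GRCm38.p6. They lie at chr13:51408368-51408667 (S1pr3, plus strand), chr12:75735680-75735979 (Sgpp1, minus strand) and chr1:78310096-78310395 (Sgpp2, plus strand). Capitals mark the searched motifs on either strand: CACCC (KLF factors) in S1pr3 and Sgpp2, and CCGGAA (ETS factors) in Sgpp1.
S1pr3: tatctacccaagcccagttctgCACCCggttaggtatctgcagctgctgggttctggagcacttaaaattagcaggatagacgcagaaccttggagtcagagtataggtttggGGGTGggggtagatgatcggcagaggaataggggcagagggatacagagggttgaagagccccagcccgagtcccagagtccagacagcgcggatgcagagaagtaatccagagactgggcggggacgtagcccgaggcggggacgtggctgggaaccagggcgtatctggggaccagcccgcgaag
Sgpp1: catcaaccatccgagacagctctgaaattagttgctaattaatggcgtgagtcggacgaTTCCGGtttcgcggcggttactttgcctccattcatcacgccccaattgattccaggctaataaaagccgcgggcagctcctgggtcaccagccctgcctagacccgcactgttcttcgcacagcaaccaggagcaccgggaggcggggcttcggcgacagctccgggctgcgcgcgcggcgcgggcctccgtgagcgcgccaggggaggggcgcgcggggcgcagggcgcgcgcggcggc
Sgpp2: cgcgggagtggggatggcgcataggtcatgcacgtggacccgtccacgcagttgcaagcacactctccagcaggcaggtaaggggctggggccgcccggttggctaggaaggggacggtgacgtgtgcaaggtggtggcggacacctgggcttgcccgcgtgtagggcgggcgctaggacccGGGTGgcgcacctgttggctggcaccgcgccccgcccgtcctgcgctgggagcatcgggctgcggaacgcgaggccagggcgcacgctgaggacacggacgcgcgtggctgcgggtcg
S1pr3 held 14 CpG pairs, Sgpp1 36 and Sgpp2 34, against a median of 7 over all 32851 windows. CACCC occurred 2 times in S1pr3 and 1 time in Sgpp2, and is found in 57.5% of all windows. CCGGAA occurred 1 time in Sgpp1 and is found in 14.9%. The letters AGATAA, which factors of the Gata family bind and 11.2% of windows hold, were in none of the 3. The same was true of CTTTGA, bound by Tcf and Lef factors and held by 16.0%. All motifs were searched on both strands, and none of the marked ones overlap. A match describes the letters and is no evidence of binding.

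Plpp3 and Plpp1, lipid phosphate phosphatases that dephosphorylate S1P outside the cell, were lower in brain than in both other tissues. Plpp3, listed in the table by its older symbol Ppap2b, stood at 48.7, 16.3 and 12 CPM in the brain libraries, at 108, 138 and 150 in those of lung, and at 986, 860 and 961 in those of liver. The 3 ranges did not overlap, and all 3 differences were called: brain against lung at a log2 fold change of −2.34 (SE 0.41, edgeR adjusted p = 0.00178), brain against liver at −5.41 (SE 0.47, edgeR adjusted p = 2.91e-06) and lung against liver at −3.06 (SE 0.42, edgeR adjusted p = 0.000228). Plpp1 (Ppap2a) had means of 52 ± 42.4, 278 ± 33.3 and 554 ± 158 CPM in brain, lung and liver, and was lower in brain than in lung (−2.39, edgeR adjusted p = 0.00211) and than in liver (−3.6, edgeR adjusted p = 7.99e-05). Abcg2, an efflux pump of the blood-brain barrier, stood the other way at 262 ± 23.6 CPM in brain, 21.9 ± 9.87 in lung and 14.3 ± 6.37 in liver (log2 fold changes 3.63 and 4.06, edgeR adjusted p = 7.59e-05 and 2.21e-05). Abca1, a lipid exporter that can carry S1P, was lowest in lung, at 46.6 ± 9.3 CPM against 147 ± 34.5 in brain (edgeR adjusted p = 0.00514) and 89 ± 22.5 in liver (edgeR adjusted p = 0.0368). Of the 9 tested genes of this list, brain had 3 higher and 2 lower against lung, and 2 higher and 3 lower against liver, while lung had 3 lower against liver. The called shares were 55.6%, 55.6% and 33.3%, against 12.3%, 16.2% and 15.1% of all genes. Hepatocyte markers were detected in liver at the sums given above, and their part in the liver levels of Sgpp1, Plpp1, Plpp3 and the genes that follow was not tested.

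Upstream, ceramidases release the sphingosine that the kinases use. Acer3 was lowest in brain, at 5.14 ± 4.3, 40.2 ± 16 and 127 ± 9.76 CPM in brain, lung and liver (brain against liver −4.84, SE 0.62, edgeR adjusted p = 0.000101). Asah2, a neutral ceramidase, had 44.4 ± 28.1, 13.8 ± 1.99 and 249 ± 24.7 CPM, and was lower in brain than in liver (−2.69, SE 0.41, edgeR adjusted p = 0.000428) and higher in brain than in lung (1.72, SE 0.4, edgeR adjusted p = 0.0125). Acer2 was lower in brain than in lung, at 317 ± 44.5 against 691 ± 79.6 CPM (−1.06, SE 0.26, edgeR adjusted p = 0.0168). Of 4 tested ceramidases, brain had 1 higher and 2 lower against lung and 2 lower against liver, while lung had 2 lower against liver. The called shares were 75%, 50% and 50% of only 4 genes, against 12.3%, 16.2% and 15.1% of all genes.

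Ceramide synthesis differed in its desaturases. Degs1, which makes ceramide from dihydroceramide, stood at 67.7, 80.6 and 37 CPM in the brain libraries, at 170, 141 and 152 in those of lung, and at 596, 1059 and 735 in those of liver, with no overlap. It was lower in brain than in liver (−3.94, SE 0.37, edgeR adjusted p = 5.95e-06), lower in lung than in liver (−2.66, SE 0.35, edgeR adjusted p = 0.000169) and lower in brain than in lung (−1.29, SE 0.34, edgeR adjusted p = 0.022). Its relative Degs2, which also makes phytoceramide, had 141 ± 5.15 CPM in brain, 2.95 ± 3.32 in lung and 0.76 ± 0.918 in liver. Brain exceeded lung at a log2 fold change of 5.61 (SE 0.97, edgeR adjusted p = 0.00168) and liver at 7.37 (SE 1.04, edgeR adjusted p = 0.00023). Sptlc1 and Sptlc2, subunits of the serine palmitoyltransferase that starts the route, were lower in brain than in liver (16.6 against 52.9 CPM and 130 against 243 CPM, edgeR adjusted p = 0.00773 and 0.00832). With library size alone as the scaling, Sptlc2 fell below the minimum fold, at −0.9. Sptssa, a small subunit of that enzyme, was lowest in lung at 13.4 ± 4.88 CPM, against 56.1 ± 18.9 in brain and 88.5 ± 19.9 in liver (edgeR adjusted p = 0.0057 and 0.000526). Of 13 tested genes, brain had 2 higher and 1 lower against lung, and 1 higher and 3 lower against liver, while lung had 2 lower against liver. The called shares were 23.1%, 30.8% and 15.4%, against 12.3%, 16.2% and 15.1% of all genes, so the last is near the share of all genes.

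Sphingomyelin synthases, which move ceramide into sphingomyelin, were higher in brain. Sgms1 stood at 2964, 2853 and 2161 CPM in the brain libraries, at 345, 210 and 311 in those of lung, and at 334, 99.3 and 145 in those of liver. Every brain library lay above all others, while lung and liver overlapped, and the log2 fold changes were 3.25 against lung (SE 0.35, edgeR adjusted p = 3.32e-05) and 3.64 against liver (SE 0.36, edgeR adjusted p = 8.74e-06). Sgms2 had 228 ± 77.8 CPM in brain, 1.73 ± 1.61 in lung and 1.33 ± 2.31 in liver (6.91 and 7.35, edgeR adjusted p = 0.0277 and 0.0171). Its liver counts were 74, 0 and 0, and without liver library 1 the fitted value against liver was 14.72, which depends on the prior count. The ceramide kinase Cerk and the glucosylceramide synthase Ugcg were lower in brain than in lung (10.9 against 49.3 and 34.9 against 104 CPM, edgeR adjusted p = 0.0275 and 0.0161). Of 10 tested genes of ceramide turnover, brain had 2 higher and 2 lower against lung (40%, against 12.3% of all genes). Against liver brain had 2 higher (20%, against 16.2% of all genes). Between lung and liver edgeR and DESeq2 each called 0, with 0 at an unadjusted p under 0.05. Of all genes, edgeR called 15.1% there.

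Between brain and lung, the calls of Sgpp2, Sgms2, Degs1, Acer2, Asah2, Cerk and Ugcg did not hold with every library left out. Leaving out any of the 6 libraries ended 3 to 6 of these 7 calls, at edgeR adjusted p-values of 0.0502 to 0.15. Brain library 1 and lung library 3 each ended 6, lung library 1 ended 5, and brain library 2, brain library 3 and lung library 2 each ended 3. The fold changes stayed close for most, at 4.75 to 5.29 for Sgpp2 and 6.5 to 7.6 for Sgms2 on the log2 scale, while that of Asah2 dropped from 1.72 to 1.13 without brain library 1.

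**Figure D3:**
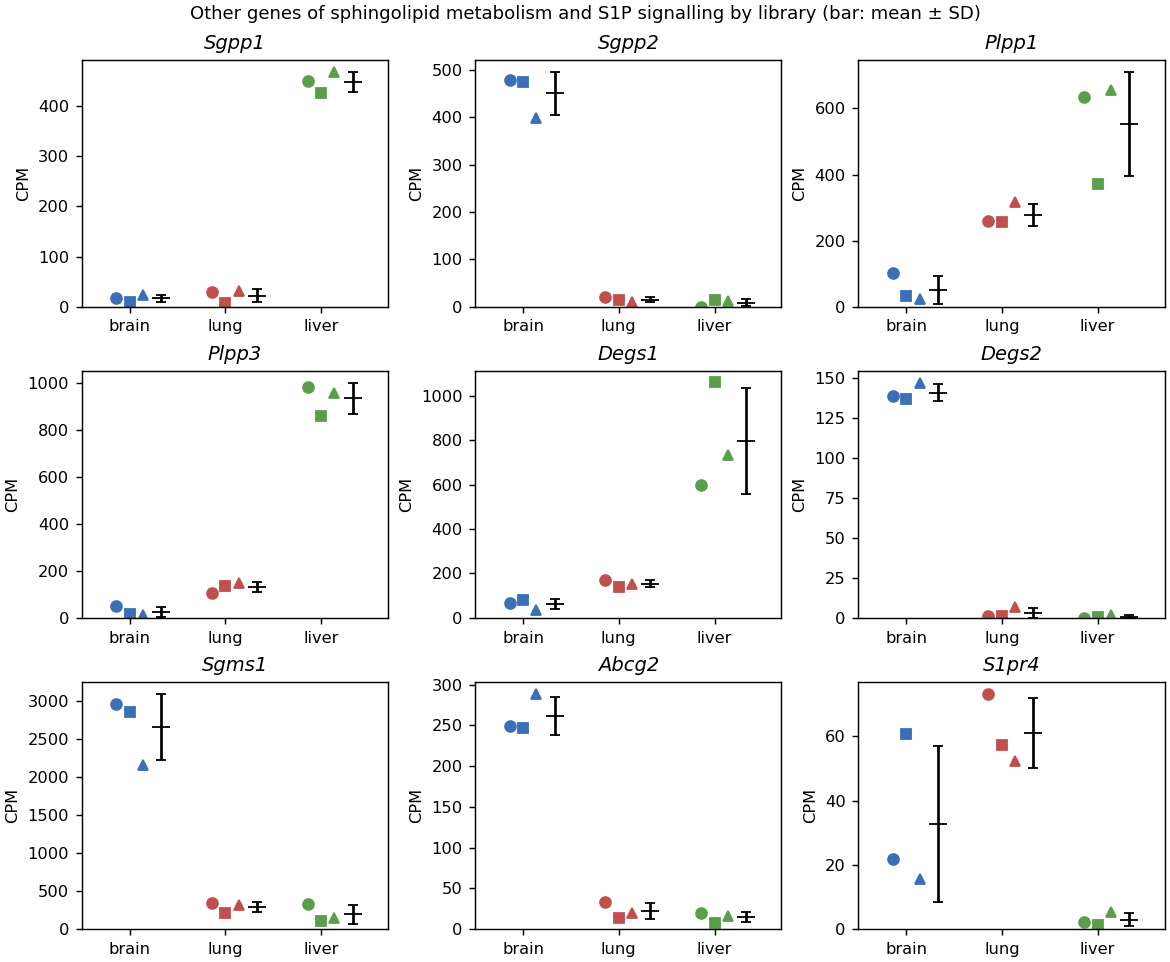
CPM (vertical axis, linear from 0) of 9 pathway genes in each bulk library by tissue; circles, squares and triangles are replicates 1, 2 and 3, and bars are mean ± SD. Sgpp1, Plpp1, Plpp3 and Degs1 are highest in liver, Sgpp2, Degs2, Sgms1 and Abcg2 in brain, and S1pr4 lies at or below 5.31 CPM in liver.

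Downstream of the receptors, the arrestins that take them off the membrane were lower in brain than in liver. Arrb1 stood at 42.1, 123 and 30.7 CPM in the brain libraries, at 572, 597 and 518 in those of lung, and at 663, 487 and 487 in those of liver. All brain libraries lay below all others, with log2 fold changes of −3.07 against lung (SE 0.43, edgeR adjusted p = 0.000313) and −3.26 against liver (SE 0.43, edgeR adjusted p = 0.000135). Arrb2 was highest in liver, at 106 ± 27 CPM against 2.81 ± 1.73 in brain and 7.68 ± 2.03 in lung (edgeR adjusted p = 4.92e-05 and 0.000486). Gna13, a G protein α subunit to which S1PR2 and S1PR3 couple, had 166 CPM in brain, 713 in lung and 331 in liver, and was lower in brain than in lung (−2.05, edgeR adjusted p = 0.000188) and than in liver (−1.18, edgeR adjusted p = 0.00688). That last value was −0.99, under the minimum fold, with scaling by library size alone. The caveolar protein Cav1 was highest in lung, at 1712 ± 180 CPM against 525 ± 45 in brain and 70.2 ± 46.9 in liver (brain against lung −1.65, edgeR adjusted p = 0.00833; brain against liver 2.8, edgeR adjusted p = 0.000157; lung against liver 4.45, edgeR adjusted p = 7.43e-06). Klf2, a shear-responsive factor that raises S1pr1 in lymphocytes of mice, was lower in liver, at 80.6 ± 32 CPM against 236 ± 39.1 in brain and 214 ± 33.5 in lung (edgeR adjusted p = 0.00759 and 0.0212). Stat3 was higher in lung than in liver (240 against 97.6 CPM, edgeR adjusted p = 0.0449). Of the 17 tested genes, brain had 3 lower against lung, and 2 higher and 3 lower against liver, while lung had 3 higher and 1 lower against liver. The called shares were 17.6%, 29.4% and 23.5%, against 12.3%, 16.2% and 15.1% of all genes. Immediate-early genes, which tissue digestion can raise, summed to 10261 to 12533 CPM in lung, 2006 to 3010 in brain and 525 to 1049 in liver; their part in these values was not tested. The calls of Klf2, Stat3, Abca1 and Acer3 between lung and liver were those of that comparison that did not hold throughout: leaving out any of its 6 libraries ended 3 of the 4, at edgeR adjusted p-values of 0.0521 to 0.152.

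The single-cell library placed the genes within brain endothelium. Of 9405 barcodes, all distinct, 8570 passed the filters and carried 43487267 UMIs, at a median of 4585 per cell. With 1 library there is no test: levels are UMIs of a gene per 10000 with an exact Poisson 95% interval, and shares are of cells with at least 1 UMI with an exact binomial interval, both for counting error only. Clustering without the 6 genes and the pathway lists gave 9 clusters, of which 6 carried a name by fixed markers. These were arterial-like (696 cells, led by Mgp and Gkn3), venous-like (1354 cells, led by Vcam1 and Lcn2 and also by Icam1, Ptgs2 and Cxcl1), fenestrated-like (157 cells, led by Plvap), mural-like (48 cells, led by Vtn), erythroid-like (62 cells, led by hemoglobin genes) and an immediate-early cluster led by Fosb and Fos (1528 cells). A cluster of 1629 cells is called the unnamed cluster, and the others go by their leading genes, Ivns1abp (2855 cells) and Ttr (241 cells, at a median of 1503 UMIs). The Ttr-led cluster had 2 choroid plexus markers, Ttr and Enpp2, among its top 10 genes, fewer than a name needed, and is not counted as endothelial. The erythroid-like and mural-like cells were thus present in spite of the sort.

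S1pr1 was found in most cells and differed between clusters. It had 46115 UMIs, 10.6 per 10000 (10.5 to 10.7), and at least 1 UMI in 93.6% of cells. It was highest in arterial-like cells at 13.9 per 10000 (13.6 to 14.2), then 13.1 (12.8 to 13.3) in the unnamed and 12 (11.8 to 12.2) in the Ivns1abp-led cluster. The immediate-early cluster at 8.75 (8.58 to 8.92) and venous-like cells at 8.56 (8.34 to 8.78) did not differ beyond their intervals. Fenestrated-like cells had 5.58 (5.11 to 6.08) and Ttr-led cells 4.7 (4.06 to 5.42), whose intervals also overlap. With cells under 2000 UMIs left out and the other 7587 thinned to 2000, the levels were 14.7 in 671 arterial-like, 8.94 in 1302 venous-like and 4.86 in 141 fenestrated-like cells. Venous-like cells then lay just above the immediate-early cluster (8.77), and the 48 remaining Ttr-led cells (6.15) above the fenestrated-like cells. The share of cells with a UMI, at that depth, was 90.6%, 79.0% and 61.0%, and 99.3%, 94.9% and 82.8% before thinning. Relative to the summed pan-endothelial markers the ratio was 0.114 in arterial-like, 0.0614 in venous-like and 0.0444 in fenestrated-like cells.

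Free RNA can place UMIs in cells that do not express a gene. Mural-like cells had 2.75 S1pr1 UMIs per 10000 (2.18 to 3.43), beside 42.8 per 10000 of pan-endothelial markers, a ratio of 0.0642 that lies within the range of the endothelial clusters. In cells with at least 1000 genes and 2000 UMIs, clustered anew, 30 mural-like cells had 0.753. Ttr-led cells had 4.7 S1pr1 UMIs per 10000, beside 95 per 10000 of pan-endothelial markers. Their ratio of 0.0495 also lies within the range of the endothelial clusters. Erythroid-like cells had 3.57 per 10000 (3.15 to 4.03). A UMI of S1pr1 was found in 43.8% of mural-like and 83.9% of erythroid-like cells, at median depths of 5306 and 12434 UMIs, and in 43.2% and 52.5% after thinning. Barcodes with over 50% hemoglobin UMIs, left out of the clusters, had an S1pr1 UMI in 6.44% (3.47% to 10.8%) of 202, at a median of 7008 UMIs and 0.0887 per 10000. The fenestrated-like share (82.8% at a median of 5291 UMIs, 61.0% thinned) was not above the erythroid-like one before thinning, and their thinned intervals overlap. No expression is therefore read from the fenestrated-like share against the erythroid-like one. But erythroid-like cells also carried 55.9 UMIs of pan-endothelial markers per 10000, so they are no clean measure of background. Against the hemoglobin barcodes the fenestrated-like share was higher, at 82.8% against 6.44%. Per 10000 the fenestrated-like level was 5.58 (5.11 to 6.08), above the erythroid-like interval, and 4.86 against 4.67 after thinning. The shares of the arterial-like, venous-like, unnamed, Ivns1abp-led and immediate-early clusters lay above the fenestrated-like and erythroid-like ones.

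Most S1pr3 UMIs of this library lay in mural-like cells. Of its 106 UMIs, 88 were in the 48 mural-like cells, at 3.06 per 10000 (2.46 to 3.77) and in 66.7% (51.6% to 79.6%) of them. Fenestrated-like cells held 11 UMIs in 5 of 157 cells (0.119 per 10000, 0.0593 to 0.212). Venous-like, Ivns1abp-led, arterial-like and erythroid-like cells held 0, which allows a share of cells with a UMI of up to 0.222% in venous-like, 0.105% in Ivns1abp-led and 0.431% in arterial-like cells. The other 7 UMIs were in 7 cells of the unnamed, immediate-early and Ttr-led clusters. Of the 12 cells with S1pr3 outside the mural-like cluster, 4 (33.3%) also held a UMI of a mural marker, against 8.67% of the 8510 other such cells. The doublet caller marked 0 cells and so did not work here, so doublets remain among these cells and their part was not tested.

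**Figure D4:**
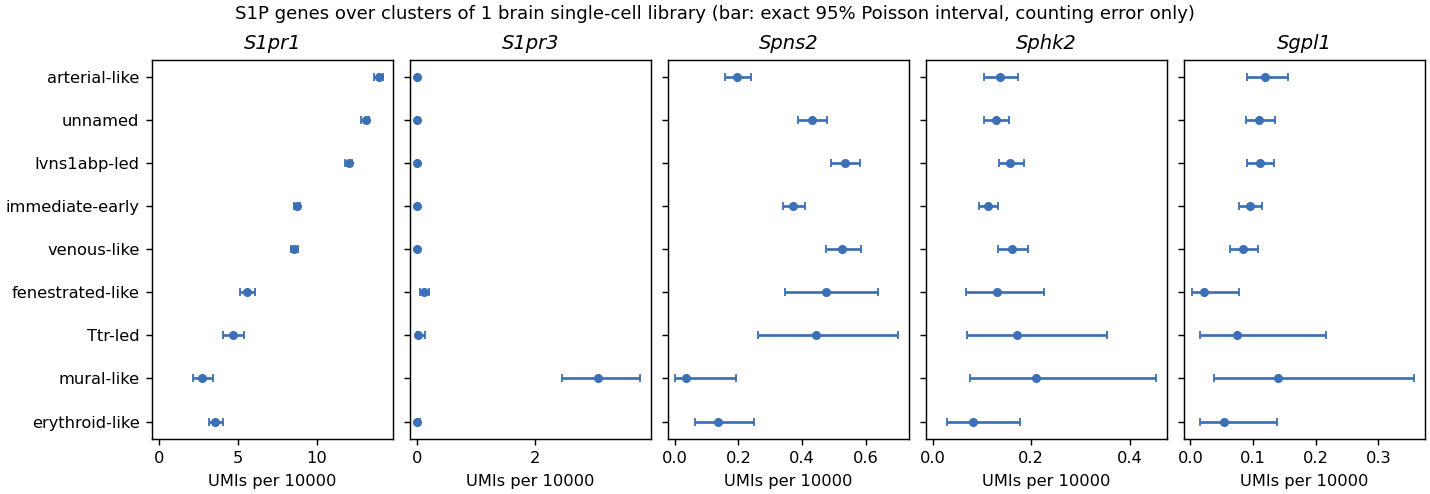
UMIs per 10000 (horizontal axis, linear, own scale per gene) of 5 of the 6 genes in the 9 clusters of the brain single-cell library; points are cluster sums and bars exact 95% Poisson intervals for counting error only. S1pr1 falls from 13.9 in arterial-like to 5.58 in fenestrated-like cells, S1pr3 stands out in mural-like cells at 3.06, and Spns2 is at 0.196 in arterial-like cells.

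Among the endothelial clusters, Spns2 was lowest in the arterial-like cells, where S1pr1 was highest. It had 0.535 UMIs per 10000 (0.491 to 0.583) in Ivns1abp-led, 0.527 (0.474 to 0.584) in venous-like and 0.475 (0.345 to 0.638) in fenestrated-like cells, which did not differ beyond their intervals. The unnamed cluster had 0.431 (0.387 to 0.478) and the immediate-early cluster 0.373 (0.339 to 0.41). Arterial-like cells had 0.196 (0.158 to 0.24), and thinned to equal depth 0.216 against 0.561 in venous-like cells. With at least 1000 genes and 2000 UMIs, clustered anew, the venous-like class held 114 cells in place of 1354 and had 0.833, so it is another set of cells. In arterial-like cells the share with a UMI was 11.1%, against 21.1% of venous-like cells, at median depths of 6567 and 4669 UMIs. Erythroid-like cells had 0.135 (0.0648 to 0.249) and a share of 14.5%. After thinning the shares were 4.02% (2.67% to 5.8%) in arterial-like and 4.92% (1.03% to 13.7%) in 61 erythroid-like cells. These intervals overlap, so no expression is read from the arterial-like share against the erythroid-like one. The erythroid-like cells also carried 55.9 UMIs of pan-endothelial markers per 10000, so they are no clean measure of background. Mural-like cells held 1 UMI (0.0348 per 10000, 0.000881 to 0.194). The left-out hemoglobin barcodes, at a median of 7008 UMIs, held 2 in 202 (0.99%, 0.12% to 3.53%, 0.0127 per 10000). That share lay below the arterial-like one before thinning (11.1%, 8.83% to 13.6%).

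The kinases and the lyase were sparse. Sphk1 had 4 UMIs in 8570 cells, 2 of them in venous-like cells, 1 in arterial-like and 1 in fenestrated-like cells, the single-cell counterpart to its 0 counts in the bulk brain libraries. Sphk2 had 595 UMIs (0.137 per 10000, 0.126 to 0.148) and ranged from 0.0811 to 0.209 over the clusters, lowest in erythroid-like and highest in mural-like cells with 6 UMIs each. Sgpl1 had 434 UMIs (0.0998 per 10000, 0.0906 to 0.11). It was lowest in fenestrated-like cells with 2 UMIs (0.0216, 0.00261 to 0.078), below the intervals of arterial-like (0.119, 0.0899 to 0.155) and unnamed-cluster cells (0.11, 0.0881 to 0.135). A count of 2 UMIs is near the limit of this depth, and no order was read from the other clusters.

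Of the other receptors, S1pr4 had 1471 UMIs (0.338 per 10000, 0.321 to 0.356) and in endothelium ranged from 0.317 in Ivns1abp-led to 0.432 (0.308 to 0.588) in fenestrated-like cells. S1pr2 had 35 UMIs, and the 6 UMIs of S1pr5 lay in 2 cells of the unnamed cluster.

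In the fenestrated-like cells, several genes around S1P lay on the side on which liver differed from brain. These cells had 35.7 Plpp3 UMIs per 10000 and 22.0 of Plpp1, against 0.201 and 0.502 in the 8062 cells of the 5 other endothelial clusters (arterial-like, venous-like, immediate-early, unnamed and Ivns1abp-led). Plpp3 is among the markers that named the cluster, so its level there is no finding. Sgpp2 had 0.205 against 1.18, Sgms1 2.35 against 13.2, Sgms2 0.151 against 1.08 and Degs2 0.0971 against 1.61 UMIs per 10000. Sgpp1 had 0.378 against 0.167 and Degs1 1.36 against 0.556. Leaving out Plpp3, 10 pathway genes were called lower in bulk brain than in liver. Of these, 5 (Acer3, Asah2, Degs1, Plpp1 and Sgpp1) were higher in fenestrated-like cells than the level of the other clusters beyond their own counting interval, and for the other 5 that level lay within the interval. Of the 8 called higher in bulk brain, 6 were lower in fenestrated-like cells beyond the interval, Cav1 was higher, and S1pr4 was within it. By direction alone, with Plpp3 included, 11 of 11 pathway genes called lower in brain (100%) lay on the liver side. Of those called higher in brain, 6 of 8 (75%) did. Over all called genes with enough UMIs, by direction alone, these were 637 of 828 (76.9%) and 705 of 888 (79.4%). No test was run, and nothing in this is called particular to the S1P pathway. The comparison is a description of 1 library and was chosen after the values were seen.

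**Figure D5:**
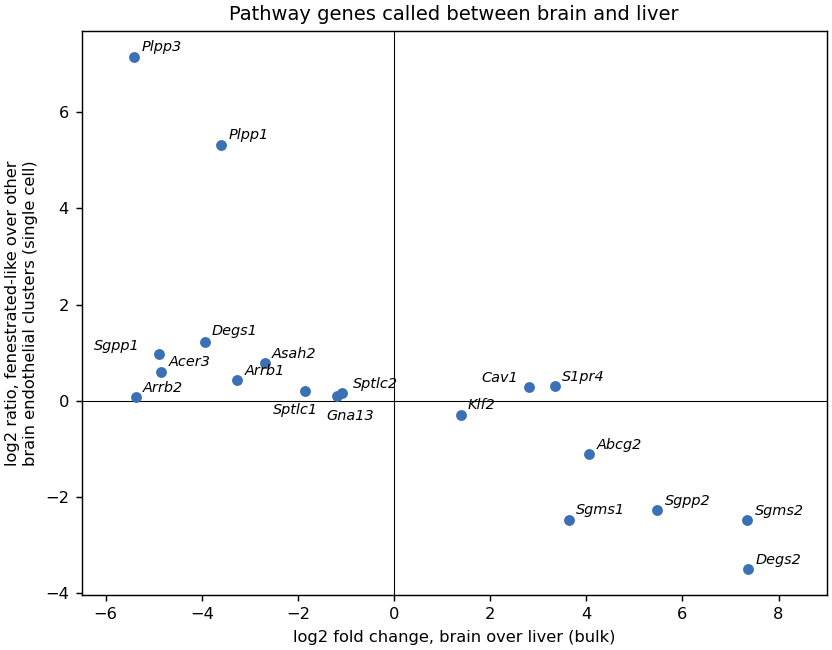
Each point is 1 of the 19 pathway genes called between bulk brain and liver: horizontal axis, edgeR log2 fold change of brain over liver; vertical axis, log2 ratio of fenestrated-like cells over the other brain endothelial clusters in the single-cell library. Plpp3 and Plpp1 stand at the top left, Degs2, Sgms1, Sgms2 and Sgpp2 at the bottom right, and Cav1 and S1pr4 lie above 0 on the right.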

How the data were processed

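Bulk RNA values were deposited counts of reads per gene in 9 libraries, and that table held no other sample columns (0). Single-cell values were deposited UMI counts of 32285 genes. Of the software in the submitters' processing notes (TopHat, Bowtie2, HTSeq 0.6.1, SAMtools 1.10.2 and Cell Ranger 1.2.0, beside Picard, bedtools and MACS2), the step each served and the use of strand are not given in the sources used here. Groups follow the labels' tissue and assay. ATAC data were not used here.

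Counts were tested with edgeR (version 4.0.16, R 4.3.3). After filterByExpr, 13216 genes remained; libraries were scaled by TMM, and all 9 entered 1 robust quasi-likelihood model in which each tissue had its mean (biological coefficient of variation 0.766). Calls needed an adjusted p (Benjamini-Hochberg, all tested genes) under 0.05 and a log2 fold change of 1 or more in size. Likeness of pattern used log2 CPM with a prior count of 2. The report gives the depths.

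Single cells needed at least 500 genes and 1000 UMIs and at most 15% mitochondrial UMIs. Clusters came from scanpy 1.11.5 with 2000 variable genes, 30 principal components, 15 neighbours and Leiden resolution 0.5, and were named with 3 or more markers of 1 class among the top 10 genes by fold. Scrublet marked 0 cells, so doublets stayed in. For a share of 0, the upper limit is 3 counts over the number of cells.

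Named were the 6 genes, the other S1P receptors, up to 4 called genes of each pathway list per comparison by size of fold, and the 3 genes nearest to each tested member in pattern. The genes, lists and rules were chosen with earlier results of these data known. All 69 listed genes had a current symbol in the gene table, and some stand in the bulk table by an older one. Alternatives were DESeq2 1.42.0, other scalings and filters, each library left out, the replicate number as a block, and other cell filters, clusterings and depths.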

Additional observations from a re-analysis of the deposited data

How the results depend on the processing

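S1pr1 stayed called against liver, in the same direction, under all alternatives of both comparisons, and no other tested member was called in any but the S1pr3 cases here. Of S1pr3 between lung and liver the call passed with DESeq2 size factors in edgeR (log2 fold change 6.47), without the count filter (6.35), with the 2 tissues fitted alone (6.39) and without liver library 1, where all liver counts are 0 and the fitted value depends on the prior count; with 1 library left out it ranged from 5.74 to 10.89. The sign of Spns2 between brain and liver, −0.01, turned to 0.01 with DESeq2, 0.14 with library size alone, 0.01 with DESeq2 size factors in edgeR and 0 without Rn45s and Malat1; with 1 library left out it ranged from −0.36 to 0.2 (without brain library 1). Leaving out 1 library also turned Sgpl1 between brain and lung (−0.27, without brain library 1, to 0.38), S1pr3 between brain and liver (−0.3, without brain library 2, to 7.41) and Sphk2 between brain and liver (−0.87 to 0.2, the latter without liver library 2). With no TMM, the median gene shifted by 0.158 for brain over liver and 0.212 for lung over liver.

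DESeq2 called 1446 genes lower in brain than in lung, against 958. With 1 library left out, brain against lung had 432 (without lung library 3) to 551 higher and 664 to 745 lower, and 444 higher without lung library 2. Lung against liver had 742 to 872 higher and 539 (without lung library 3) to 755 lower, with 598 lower without lung library 2. Pathway genes numbered 5 (without lung library 3) to 7 higher and 6 (without brain library 1) to 9 lower for brain against lung, and 2 (without lung library 1 or liver library 3) to 4 higher and 6 to 8 lower in lung than in liver. Without the count filter Sgpp2 and Sgms2 lost their calls (edgeR adjusted p = 0.107 and 0.102 against lung, 0.074 and 0.0744 against liver). Fitting the 2 tissues alone ended the calls of Asah2 (0.0576) between brain and lung and of Abca1 (0.0559) and Stat3 (0.0584) between lung and liver, and library size alone those of Abca1 and Acer3 (0.0915 and 0.0674).

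Deviations from the tissue means correlated at −0.003 to 0.078 between same-numbered libraries of different tissues, and at −0.07 to 0.055 between differently numbered ones. Since the labels name no animals, these values cannot tell whether a shared number means a shared mouse or day. With the replicate block S1pr1 was 2.55 for brain over liver (edgeR adjusted p = 0.000183), the brain against lung calls numbered 624 higher and 816 lower, and of the pathway genes Sgpp2 (0.0763) and Cerk (0.0524) between brain and lung, and Abca1 (0.058) and Stat3 (0.0575) between lung and liver, lost their calls.

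Cells with at least 1000 genes and 2000 UMIs, clustered anew, gave Spns2 0.256 in 808 arterial-like cells (696 before), and in 114 venous-like cells (1354 before, so another set of cells) S1pr1 9.34, Spns2 0.833, Sphk2 0.098 and Sgpl1 0.0613 per 10000. The 30 mural-like cells (48 before) then had S1pr1 0.753 and S1pr3 3.95. Thinning to 2000 UMIs, without shallower cells, gave S1pr1 14.7 in arterial-like, 8.94 in venous-like, 4.86 in fenestrated-like, 4.67 in erythroid-like and 11.2 in all cells. It gave Spns2 0.42 in the immediate-early cluster and 0.468 in all cells, Sgpl1 0.0689 and 0.0857, and Sphk2 0.148 in all cells. The causes were not tested. Few reads stand behind Sphk1 and S1pr5, whose counts are 0 in most libraries, and S1pr3 in brain and liver.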
